A study of Mus musculus with 6 samples.

Results

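A total of 38 genes of the mouse Hoxa, Hoxb, Hoxc and Hoxd clusters were followed in heads of embryos at embryonic day 9.5, in embryos null for Arid3b and in wild type embryos. Members were genes whose symbol is Hoxa, Hoxb, Hoxc or Hoxd followed by a number, found through the RefSeq accession of each array feature. They made up 38 of the 20021 named genes on the array: 10 in Hoxa, 10 in Hoxb, 9 in Hoxc and 9 in Hoxd, read by 41 probes. The Arid3b-null group held 3 arrays and the wild type group 3 arrays. Each array carried total RNA from a pool of 4 heads, dissected with the first branchial arch attached, after amplification and Cy3 labelling. The Arid3b protein binds AT-rich DNA through its ARID domain. The labels give neither the allele nor the strain nor the sex. Whether pools came from different litters is not stated either, and the p-values thus rest on the variation among these pools alone.

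Hox genes encode homeodomain transcription factors that give cells along the body axis their position. Within a cluster the genes lie in the order in which they are used: low paralogue numbers at the 3′ end are switched on early and reach far forward, into the hindbrain, and high numbers at the 5′ end come later and stay in the trunk, limbs and tail. In the head of this stage the low-numbered genes mark hindbrain segments and the neural crest of the arches behind the first. The forebrain, the midbrain and the neural crest of the first branchial arch are free of Hox transcripts. Retinoic acid, Cdx proteins and hindbrain segment regulators set the forward limits, and Polycomb and Trithorax proteins keep the pattern.

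Levels below are log2 of the scanner's background-subtracted signal, called the processed signal here, relative to the 75th percentile on that array, so 0 is the level of that percentile. They compare arrays for 1 gene and do not rank genes, since each probe has its own response. The 75th percentile ran from 626 to 977 signal units over the 6 arrays, and 67.9% to 70.3% of spots were well above background, the scanner software's flag for a spot clear of its local background. Arid3b itself was at 1.27, 1.06 and 1.44 in Arid3b-null heads, against 1.98, 2.26 and 3.09 in wild type heads. It was 2.28-fold lower in Arid3b-null heads (difference -1.19 ± 0.29 SE, adjusted p = 0.0265 by limma), and its groups did not overlap. That probe, the brightest of 3, showed the smallest difference. The other 2 probes fell by 1.37 and 2.33 (2.59-fold and 5.02-fold, adjusted p of 0.0182 and 5.30e-04 over all kept probes). The labels do not place these probes relative to the mutation. Each slide carried the wild type and the Arid3b-null array of 1 replicate number, with wild type always at position 1 and Arid3b-null at position 2. Genotype and place on the slide cannot be told apart.

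Wild type replicate 2 stood apart from the other 5 arrays. On it 1022 probes were well above background that were so on no other array, against 119 to 361 such probes on each other array. Many genes at its top are known from the placenta. Summed over 22 trophoblast and placenta genes, a list chosen after values had been seen, the signal was 9.18, 0.994 and 0.835 times the 75th percentile in Arid3b-null replicates 1, 2 and 3, against 0.826, 63.6 and 0.664 times in wild type replicates 1, 2 and 3. Wild type replicate 2 was thus far above the rest and Arid3b-null replicate 1 came next. The part of such RNA in the results was not tested, and results that rest on wild type replicate 2 are also given without it.

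Promoters of 22 of the 38 Hox genes were matched in RefSeq (build GRCm38.p6), in 24 windows of 300 bases that run from 250 bases before to 50 bases after the annotated start. The windows of Hoxb8, Hoxb4 and Hoxa2 are printed because these genes passed the test described further on, Hoxb8 and Hoxb4 higher and Hoxa2 lower in Arid3b-null heads. They lie at chr11:96281655-96281954 on the plus strand, chr11:96318017-96318316 on the plus strand and chr6:52164782-52165081 on the minus strand. Each is written 5′ to 3′ along its gene, and capitals mark matches on either strand to ATTA, the core that homeodomains bind, TGATNNAT, a joint site form of Pbx and Hox proteins, or AGGTCA, the half-site of retinoic acid receptors.
Hoxb8: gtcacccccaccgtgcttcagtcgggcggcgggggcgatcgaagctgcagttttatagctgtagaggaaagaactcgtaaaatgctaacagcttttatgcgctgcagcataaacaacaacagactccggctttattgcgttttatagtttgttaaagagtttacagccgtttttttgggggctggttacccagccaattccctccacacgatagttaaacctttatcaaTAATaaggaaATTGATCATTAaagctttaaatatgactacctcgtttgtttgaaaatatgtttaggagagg
Hoxb4: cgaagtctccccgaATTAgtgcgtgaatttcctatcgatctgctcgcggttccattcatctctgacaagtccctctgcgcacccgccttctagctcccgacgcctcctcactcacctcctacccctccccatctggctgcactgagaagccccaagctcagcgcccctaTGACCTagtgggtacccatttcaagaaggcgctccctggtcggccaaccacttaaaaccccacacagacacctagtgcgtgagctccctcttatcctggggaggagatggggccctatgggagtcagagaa
Hoxa2: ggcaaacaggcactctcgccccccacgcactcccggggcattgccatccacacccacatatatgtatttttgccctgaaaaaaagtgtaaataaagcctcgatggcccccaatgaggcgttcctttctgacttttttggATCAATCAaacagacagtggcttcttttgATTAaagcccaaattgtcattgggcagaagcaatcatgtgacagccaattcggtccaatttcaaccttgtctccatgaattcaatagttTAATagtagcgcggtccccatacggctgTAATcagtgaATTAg
Hoxb8 held 2 matches to ATTA and 1 to TGATNNAT, which overlapped an ATTA match. Hoxb4 held 1 ATTA and 1 AGGTCA, and Hoxa2 held 4 ATTA and 1 TGATNNAT with no overlap. Among all 32851 promoter windows of the table, 58% held ATTA, 8.85% held TGATNNAT and 16.3% held AGGTCA. The A and T share was 57.7% for Hoxb8, 42% for Hoxb4 and 54.3% for Hoxa2, beside a median of 47.3% over all windows. A match is a run of letters and was not tested as a binding site.

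Detection is given for the probe that stands for each gene, the brightest among those that met the filter described next, or else the brightest. Of the 11 genes in paralogue groups 1 to 4, 7 were well above background on all 6 arrays. In groups 5 to 8 this held for 2 of 11 genes, Hoxa7 and Hoxb6, and in groups 9 to 13 for 0 of 16. The other Hoxa9 probe, slightly dimmer on average, was well above background on all 6 arrays, so with any probe counted the number is 10 of 38 genes in place of 9. Of the 16 genes in groups 9 to 13, 10 were well above background on no array. By cluster, 3 of 10 Hoxa genes and 5 of 10 Hoxb genes were well above background on all 6 arrays, against 0 of 9 Hoxc genes and 1 of 9 Hoxd genes, Hoxd3. No member was well above background on all 3 wild type arrays and on none of the Arid3b-null arrays. The reverse held for 2 members, Hoxb5 and Hoxb7.

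**Figure D1:**
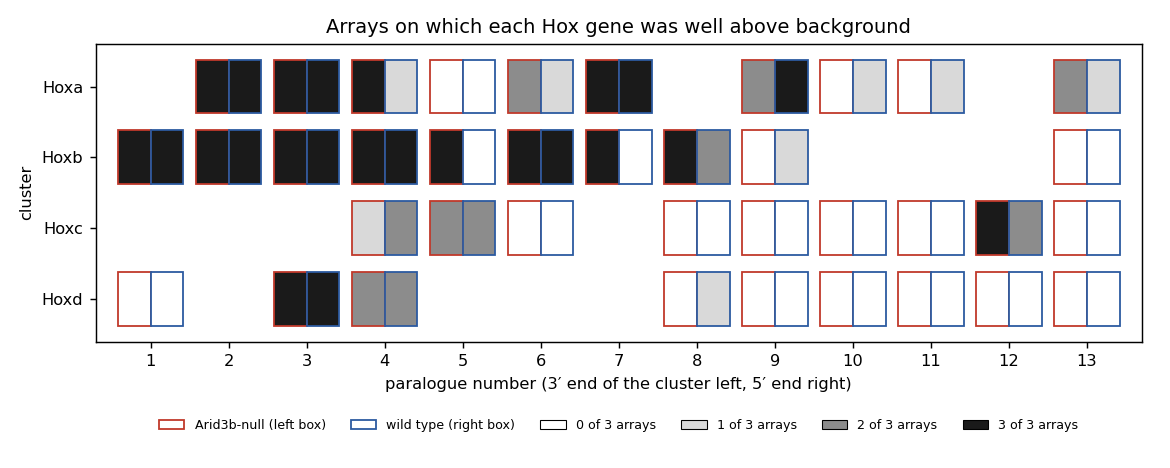
Number of arrays (0 to 3, white to black) on which each of the 38 Hox genes was well above background, by cluster (rows) and paralogue number (columns), with Arid3b-null in the left box and wild type in the right box of each pair; places without boxes have no gene shown. Black boxes gather at low numbers of Hoxa and Hoxb, while Hoxb5 and Hoxb7 are black for Arid3b-null and white for wild type.

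A gene was tested if either group had its probe well above background on each of its 3 arrays, which left 15 of the 38 Hox genes. Of these 14 met the condition in Arid3b-null heads and 10 in wild type heads. A gene that entered through 1 group alone was likely to differ, so the counts that follow describe the tested genes and not the clusters as a whole. At an adjusted p under 0.05 over all 14906 tested genes, 4 of these 15 Hox genes were higher in Arid3b-null heads (Hoxb4, Hoxb5, Hoxb7 and Hoxb8), where 12.3% of all tested genes were higher. On the other side 1, Hoxa2, was lower, where 11.2% of all tested genes were lower. Of the 4 higher genes, Hoxb5, Hoxb7 and Hoxb8 entered the test through the Arid3b-null arrays alone. When a gene had to be well above background on all 6 arrays, 10 Hox genes were tested. Hoxb4 was then the 1 higher call, where 1701 of 14181 tested genes were higher, and Hoxa2 the 1 lower call, where 1637 were lower. The median difference of the 15 was -0.03, that of the 38 was -0.16, and that of all tested genes was -0.04. Every Arid3b-null array lay above every wild type array for 4 tested Hox genes (20.6% of all tested genes) and below for 3 (21.8%), Hoxa2, Hoxa3 and Hoxb2. In bulk heads, fewer cells of a kind and less RNA per cell cannot be told apart.

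Among the 10 Hoxa genes followed, 1 passed. Hoxa2, the selector gene of the second branchial arch, was at -1.90, -1.91 and -1.55 in Arid3b-null heads, against -0.88, -1.26 and -1.35 in wild type heads. All 3 Arid3b-null arrays were lower, and Hoxa2 fell by 0.62 ± 0.18 SE on the log2 scale (1.54-fold, adjusted p = 0.0469). Within slides its difference ran from -1.01 to -0.21, and with the slide as a block its adjusted p was 0.0678.

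Hoxa3, needed for thymus and parathyroid development from the third pouch, was at -2.56, -3.35 and -2.88 in Arid3b-null heads, against -1.70, -2.55 and -1.74 in wild type heads. The lowest wild type array was just above the highest Arid3b-null array. The difference of -0.93 ± 0.30 SE did not pass (95% interval -1.63 to -0.23, adjusted p = 0.0616), but it passed with the slide as a block (0.0132), when wild type replicate 2 was left out (-1.21, adjusted p = 0.0256) and after normexp correction. Further 5′ in the cluster, Hoxa4, Hoxa7 and Hoxa9 differed by 0.14, -0.16 and -0.27, with adjusted p of 0.888, 0.743 and 0.651. Their 95% intervals, -1.20 to 1.47, -0.85 to 0.54 and -1.18 to 0.64, leave changes of more than 1.5-fold in both directions possible for Hoxa4 and for Hoxa9. Hoxa4 was well above background on all 3 Arid3b-null arrays and on 1 wild type array.

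In the Hoxb cluster 4 of the 5 genes from Hoxb4 to Hoxb8 were higher in Arid3b-null heads, while Hoxb1, Hoxb2 and Hoxb3 did not pass on the probes that stand for them. Hoxb1, which specifies the hindbrain segment of the facial motor neurons, was at -3.94, -3.95 and -3.18 in Arid3b-null heads, against -3.19, -3.04 and -2.38 in wild type heads. The groups touched at a single array each, and each slide gave a lower Arid3b-null value (-0.75, -0.92 and -0.79). Its difference was -0.82 ± 0.29 SE with an adjusted p of 0.0856, or 0.0142 with the slide as a block. Hoxb2, which acts in the same motor neurons, was at -1.21, -1.20 and -1.06 in Arid3b-null heads, against -0.03, -0.39 and -1.06 in wild type heads. Wild type replicate 3 was level with the highest Arid3b-null array, and the difference of -0.67 ± 0.26 SE did not pass (adjusted p = 0.104).

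For Hoxb3, a gene of the hindbrain and the third arch, the 2 probes disagreed. The brighter one, which stands for the gene, differed by 0.05 ± 0.21 SE (adjusted p = 0.879). The other was at -6.11, -6.59 and -6.56 in Arid3b-null heads, against -3.81, -4.42 and -5.04 in wild type heads. On that probe the groups were well apart, with a difference of -2.0 ± 0.31 SE (lower in Arid3b-null heads, adjusted p = 0.00637 in a fit over all kept probes). That probe was kept through the wild type arrays alone, since 2 of 3 Arid3b-null arrays were well above background for it. Its Arid3b-null signal was 10.3, 6.7 and 10.7 units above background. After normexp with an offset of 50 its difference was -0.64. Whether the 2 probes read different transcripts was not tested.

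Hoxb4, whose forward limit lies in the caudal hindbrain, was at -3.29, -4.20 and -3.97 in Arid3b-null heads, against -4.56, -4.63 and -4.95 in wild type heads. The groups did not overlap, and Hoxb4 was 1.86-fold higher in Arid3b-null heads (difference 0.89 ± 0.25 SE, 95% interval 0.30 to 1.49, adjusted p = 0.0433). Hoxb5, a gene of the vagal neural crest and the caudal neural tube, was at -4.38, -4.69 and -4.45 in Arid3b-null heads, against -6.65, -6.33 and -8.76 in wild type heads. No wild type array was well above background for it. It was at least 4.34-fold higher in Arid3b-null heads when each wild type array was set at its own signal or the lowest signal among its probes well above background, whichever was higher (fitted difference 2.74 ± 0.59 SE, adjusted p = 0.0179). The bound applies to values subtracted by the scanner software, and other background treatments give smaller sizes.

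Hoxb6, a trunk gene between them, did not pass: its difference was -0.27 ± 0.47 SE (adjusted p = 0.725). Its wild type arrays were at -6.20, -4.49 and -6.36, with replicate 2 far above the others, and without that array the difference was 0.33 (adjusted p = 0.295). Hoxb7 was at -5.45, -4.97 and -5.86 in Arid3b-null heads, against -7.47, -6.90 and -8.79 in wild type heads. It too was well above background on no wild type array, and it was at least 2.42-fold higher in Arid3b-null heads (fitted difference 2.29 ± 0.48 SE, adjusted p = 0.0163). Hoxb8, another trunk gene, was at -2.84, -4.15 and -3.28 in Arid3b-null heads, against -8.39, -5.63 and -6.31 in wild type heads. Its lowest Arid3b-null array was above its highest wild type array, and 2 of 3 wild type arrays were well above background. Its fitted difference was 3.35 ± 0.70 SE (95% interval 1.7 to 5.0, adjusted p = 0.0161), and the 3 slides gave 5.54, 1.48 and 3.03.

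**Figure D2:**
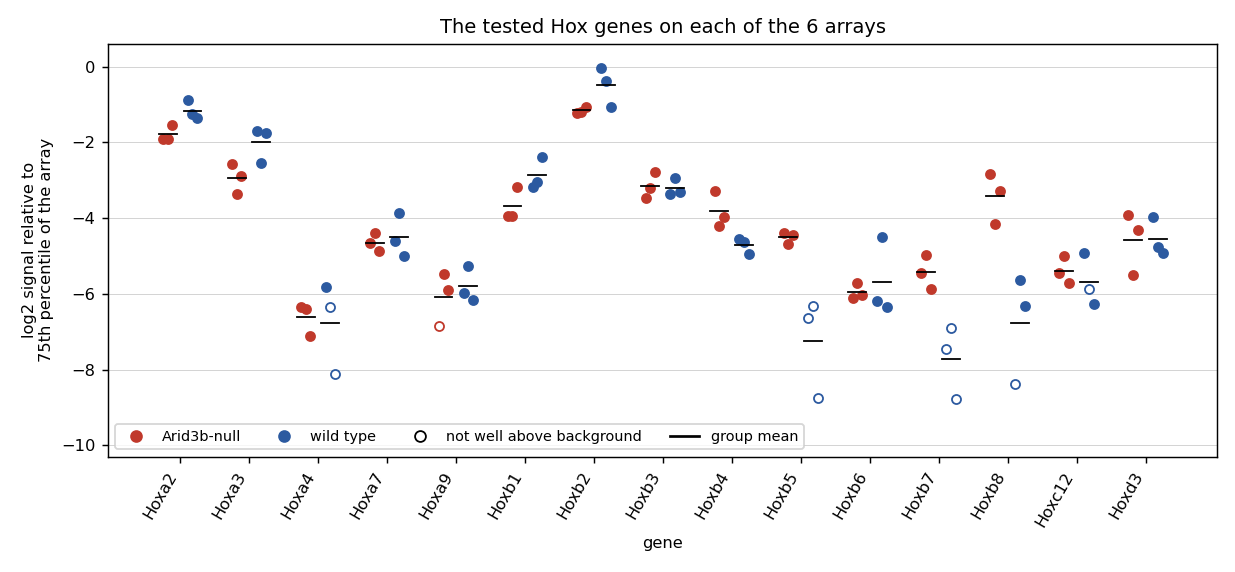
Log2 signal relative to the 75th percentile of the array for the 15 tested Hox genes, with Arid3b-null arrays left and wild type arrays right, open points where the spot was not well above background and bars at the group means. Hoxb5, Hoxb7 and Hoxb8 have wild type arrays spread down to -8.76, -8.79 and -8.39; levels of different genes are not comparable.

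In Hoxc and Hoxd the tested genes were Hoxc12 and Hoxd3. Hoxc12, a gene of the hindmost trunk, differed by 0.30 ± 0.36 SE (adjusted p = 0.591). Hoxd3, a gene of the hindbrain and the cervical vertebrae, differed by -0.03 ± 0.43 SE (adjusted p = 0.974). Its Arid3b-null arrays were at -3.93, -5.50 and -4.32, a wider spread than the wild type values of -3.98, -4.76 and -4.93. The remaining 23 Hox genes were below the filter and were not tested. Their measured differences ran from -1.40 to 1.30 with a median of -0.16, and from -0.63 to 0.91 with a median of 0.07 when wild type replicate 2 was left out. Of these, 9 were well above background on some arrays and 14 on none. Hoxd4, a hindbrain gene, was at -3.61, -6.87 and -5.90 in Arid3b-null heads, against -6.14, -8.28 and -5.86 in wild type heads, a difference of 1.30 with overlapping groups. Arid3b-null replicate 1 was the highest array and wild type replicate 2 the lowest, and without wild type replicate 2 the difference was 0.54.

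Some 5′ Hox genes were detected on 1 wild type array alone, while others, such as Hoxa9, Hoxa13 and Hoxc12, were detected in both groups. The other Hoxa13 probe, dimmer on average, was at -8.83, -8.98 and -9.40 in Arid3b-null heads, against -9.04, -5.50 and -9.08 in wild type heads. That probe was well above background on wild type replicate 2 alone. Hoxa10, Hoxa11, Hoxb9 and Hoxd8 were each well above background on wild type replicate 2 and on no other array. Hoxa10, a gene of the caudal trunk and the uterus, was at -8.61, -8.81 and -9.18 in Arid3b-null heads, against -8.88, -4.57 and -8.94 in wild type heads. Set against each other array at its own signal or its lowest signal well above background, whichever was higher, Hoxa10 was at least 4.24-fold higher on wild type replicate 2. By the same bound Hoxa11 was at least 3.70-fold, Hoxb9 at least 4.64-fold and Hoxd8 at least 1.99-fold higher there. On the probes that stand for the 38 members, 4 genes were well above background on wild type replicate 2 alone. On each of the other 5 arrays alone there were 0. In all, 4 genes of groups 9 to 13 were well above background on wild type replicate 2 and 2 to 3 on each other array. With wild type replicate 2 left out, the difference of Hoxa10 was 0.04 in place of -1.40, that of Hoxa11 0.07 in place of -1.34 and that of Hoxb9 -0.32 in place of -1.30. Cdx2, a caudal regulator of Hox genes that is also a trophoblast gene, was at -8.89, -9.03 and -9.46 in Arid3b-null heads, against -9.10, -2.66 and -9.17 in wild type heads. The same array thus carried these 4 Hox genes, Cdx2 and the placental genes, and the source of their RNA was not tested.

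**Figure D3:**
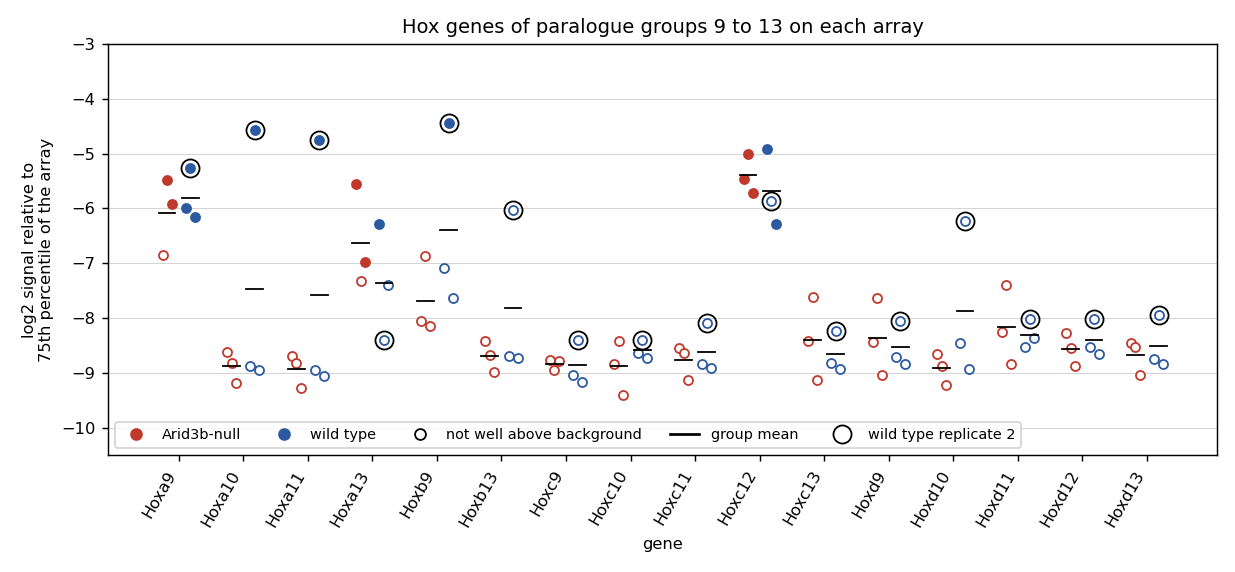
Log2 signal relative to the 75th percentile for the 16 Hox genes of paralogue groups 9 to 13, Arid3b-null left and wild type right, with open points where a spot was not well above background and a ring around wild type replicate 2. The ringed point stands clear of the other 5 arrays for Hoxa10, Hoxa11 and Hoxb9, which were well above background on that array alone.

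The size of the Hoxb differences depended on the treatment of the background. In signal units above background, Hoxb8 had 80.8, 33.0 and 83.4 in Arid3b-null heads, against 1.7, 13.5 and 6.8 in wild type heads. Hoxb5 had 30.2, 23.7 and 40.5 in Arid3b-null heads, against 6.1, 8.8 and -1.5 in wild type heads. Hoxb7 had 13.4, 17.9 and 14.4 in Arid3b-null heads, against 3.3, 5.5 and 1.0 in wild type heads. Negative control spots had a standard deviation of 1.3 to 4.1 units on Arid3b-null arrays and 1.6 to 4.7 units on wild type arrays, so most wild type values of these 3 genes were close to the noise. Hoxb8 on wild type replicate 2 had the most units of them, 13.5, but that array also had the largest control standard deviation, 4.7 units. Hoxa2 was far from the noise, at 174.4, 150.4 and 314.8 units in Arid3b-null heads, against 348.8, 272.7 and 249.2 units in wild type heads.

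Normexp correction, which models signal and background together and here adds an offset of 50 units before the log, gave Hoxb8 a difference of 0.67 (adjusted p = 0.0221), Hoxb5 0.31 (0.199) and Hoxb7 0.06 (0.853). These were 20.0%, 11.1% and 2.51% of the differences on the processed signal. Hoxb4 kept 32.2% of its difference (0.29, adjusted p = 0.257) and Hoxa2 81.0% (-0.50, adjusted p = 0.0519). Under this correction 1 Hox gene, Hoxb8, was higher in Arid3b-null heads, where 9.03% of all tested genes were higher, and 2, Hoxa3 and Hoxb1, were lower, where 10.9% were lower. With an offset of 1, Hoxb8 was higher (8.99% of all tested genes) and Hoxa3 was lower (10.7%), and Hoxb8, Hoxb5 and Hoxb7 differed by 1.76, 1.26 and 0.62. With no subtraction the same 3 differed by 0.92, 0.51 and 0.20, and Hoxb5 (adjusted p = 0.0368) and Hoxb8 (0.00551) passed. Hoxb8 was therefore the member that passed as higher under all 4 treatments of the background, at sizes between 0.67 and 3.35. All 4 treatments ran on the same tested genes, which Hoxb8 had entered through the Arid3b-null arrays alone. They are thus not independent tests of it. Hoxa3 passed as lower under the 3 alternatives and had an adjusted p of 0.0616 on the processed signal.

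**Figure D4:**
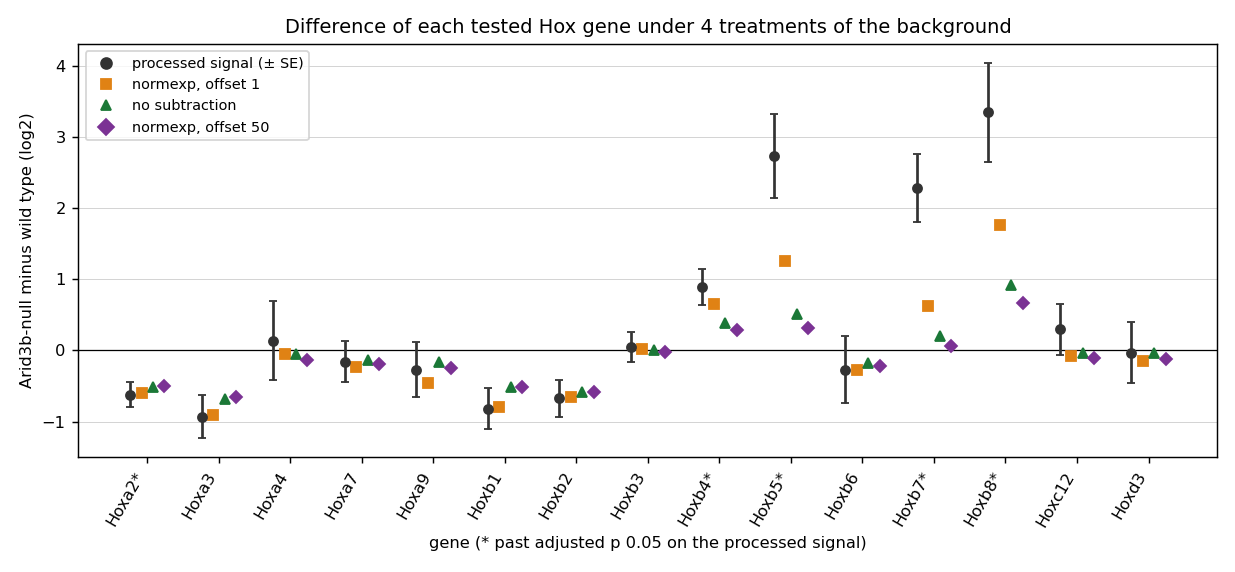
Difference of Arid3b-null minus wild type on the log2 scale for the 15 tested Hox genes on the processed signal (black, ± SE), after normexp with an offset of 1 (orange), without subtraction (green) and after normexp with an offset of 50 (purple). Hoxb5, Hoxb7 and Hoxb8 shrink from 2.74, 2.29 and 3.35 to 0.31, 0.06 and 0.67, while Hoxa2 stays between -0.62 and -0.50.

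Across the array, called genes kept less of their difference the dimmer they were. Among called genes with a mean level under -6, the range of Hoxb7, the median share a gene kept after normexp with an offset of 50 was 5.11%. In that range 3 of 116 remained called in the same direction, and 30 turned sign. Between -6 and -4, the range of Hoxb4, Hoxb5 and Hoxb8, the median share was 28.2%. There 98 of 483 remained called and 21 turned sign. Between -4 and -2 it was 59.1% with 442 of 659 remaining called, and between -2 and 0, the range of Hoxa2, 83.8% with 774 of 853. Above 0 it was 96.6% with 1359 of 1395. With an offset of 1 the medians, from the dimmest range to the brightest, were 33.5%, 65.5%, 87.0%, 95.4% and 99.2%.

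Single arrays also decided which genes passed. Without Arid3b-null replicate 1, limma called 0 Hox genes in either direction, where 5.88% of all tested genes were higher and 4.29% lower. At an unadjusted p under 0.05, 4 Hox genes were higher and 2 lower in that fit. No share of all tested genes is given for that threshold in that fit, so these counts do not set Hox genes apart. In the fit of all 6 arrays, 2099 genes beyond the 3506 called reached it. The differences of Hoxb5, Hoxb7 and Hoxb8 were then 2.68, 2.31 and 3.06, close to the 2.74, 2.29 and 3.35 of all 6 arrays. Without Arid3b-null replicate 3, Hoxb7 was the 1 Hox gene called, where 7.21% were higher and 5.28% lower. Without wild type replicate 2, Hoxb5, Hoxb7 and Hoxb8 were higher (8.43% of all tested genes) and Hoxa3 was lower (6.15%). With the slide as a block the same 4 genes were higher (12.9% of all tested genes), and Hoxa3 and Hoxb1 were lower (11.8%) in place of Hoxa2. Over the 6 fits that each left out 1 array, the adjusted p of Hoxb8 ran from 0.0127 to 0.0659, of Hoxb5 from 0.00139 to 0.0692 and of Hoxb7 from 0.00734 to 0.0594. Hoxb5 and Hoxb8 missed the threshold without Arid3b-null replicate 1 or 3, and Hoxb7 without Arid3b-null replicate 1 or 2. Hoxb4 passed in 1 of the 6 fits, without Arid3b-null replicate 2 (0.0443 to 0.102), and Hoxa2 in 1, without wild type replicate 3 (0.0279 to 0.159).

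Genes that act on the Hox clusters were followed in lists. Every list count by adjusted p stands beside shares of 12.3% higher and 11.2% lower among all tested genes. Without wild type replicate 2 these shares were 8.43% and 6.15%. Counts at an unadjusted p under 0.05 stand beside 3506 genes called and 2099 further genes at that threshold, out of 14906. No split of the 2099 by direction is given. In the retinoic acid list 5 of 18 tested genes were higher and 3 lower in Arid3b-null heads, with a median of 0.17, and the counts were the same without wild type replicate 2. Rxra, a partner of the retinoic acid receptors, was at -1.86, -1.60 and -1.86 in Arid3b-null heads, against -3.89, -3.49 and -3.62 in wild type heads. Its difference was 1.89 ± 0.16 SE (adjusted p = 9.20e-04). Rarb, a receptor that retinoic acid itself induces, was at 1.02, 0.97 and 0.84 in Arid3b-null heads, against -0.57, -0.78 and -0.54 in wild type heads. Its difference was 1.57 ± 0.14 SE (adjusted p = 9.89e-04). Aldh1a1, an enzyme that makes retinoic acid, fell by 1.70 (adjusted p = 0.00250), and the carrier gene Rbp4 rose by 1.72 (adjusted p = 0.00263). Of the other members that passed, Cyp26c1 and Dhrs3 were higher by 1.84 and 1.25, while Cyp26b1 and Aldh1a2 fell by 1.64 and 1.35. Both lower Aldh genes encode enzymes that make retinoic acid, while the Cyp26 genes, whose enzymes degrade it, moved in both directions.

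Among the hindbrain segment and upstream regulators, 2 of 8 tested genes were higher and 0 lower by limma, with a median of 0.33. At an unadjusted p under 0.05, 3 were higher and 0 lower. Without wild type replicate 2, Egr2 alone passed. Egr2, also called Krox20, which switches on Hoxa2 and Hoxb2 in their hindbrain segments, was at -1.88, -2.43 and -1.95 in Arid3b-null heads, against -3.16, -2.98 and -3.56 in wild type heads. It rose by 1.15 ± 0.22 SE (adjusted p = 0.0116) while Hoxa2 and Hoxb2 had negative differences. Fgf8, the signal of the boundary between midbrain and hindbrain, rose by 0.65 (adjusted p = 0.0202, or 0.0713 without wild type replicate 2). Fgf3, a signal made in the hindbrain, differed by 0.85 ± 0.33 SE and did not pass (adjusted p = 0.108).

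**Figure D5:**
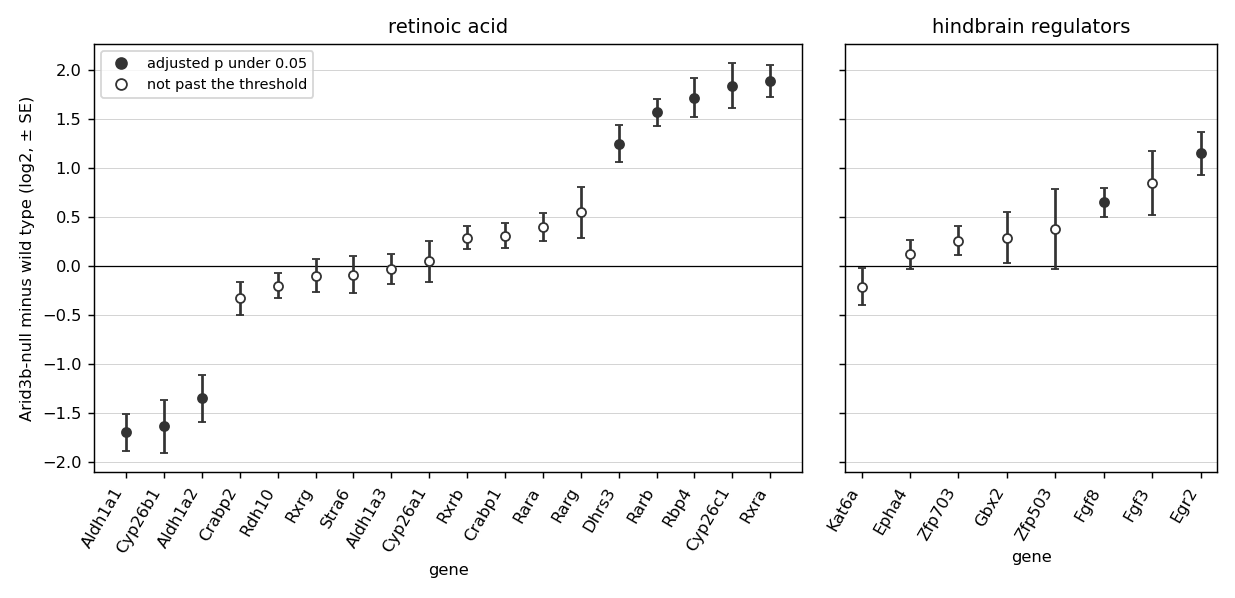
Difference of Arid3b-null minus wild type on the log2 scale (± SE) for the tested genes of the retinoic acid list (left) and the hindbrain regulator list (right), ordered by size, with filled points past an adjusted p of 0.05. The retinoic acid genes run from -1.70 for Aldh1a1 to 1.89 for Rxra, and the hindbrain regulators from -0.21 for Kat6a to 1.15 for Egr2.

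Cofactors and chromatin regulators formed the next lists. Of 9 TALE cofactors, which bind DNA beside Hox proteins, Pbx4 was higher (0.55, adjusted p = 0.0258) and 0 were lower by limma, with 1, Pknox1, lower at an unadjusted p under 0.05 (-0.54, adjusted p = 0.0712). The median of the list was 0.13. Pbx4 had an adjusted p of 0.0608 without wild type replicate 2, and after normexp with an offset of 50 its difference was 0.12 (adjusted p = 0.574). Of 20 tested Polycomb and Trithorax genes, 2 were higher and 2 lower, with a median of -0.15, shares near those of all tested genes. Without wild type replicate 2, Ezh1 alone passed. Ezh1, a methyltransferase of Polycomb, rose by 1.12 (adjusted p = 0.00494) and Jarid2, which helps to target Polycomb, by 0.89 (0.0246). Phc2, another Polycomb subunit, fell by 0.53 (0.0380), and Ash1l, a Trithorax methyltransferase, by 0.69 (0.0436). Of 4 tested caudal regulators 0 passed by limma, and Cdx1, which acts directly on Hox genes in the trunk, was lower at an unadjusted p under 0.05 (-0.60, adjusted p = 0.0546).

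Genes beside or within the clusters other than Hox genes were followed too. Of 19 tested, 1 was higher and 2 were lower, with a median of 0.03. Without wild type replicate 2, Snx11 alone passed. Snx11, a sorting nexin gene beside the Hoxb cluster, was at 1.30, 1.32 and 1.18 in Arid3b-null heads, against 2.53, 2.45 and 2.50 in wild type heads. It fell by 1.23 ± 0.12 SE (adjusted p = 0.00158), opposite in sign to Hoxb4, Hoxb5, Hoxb7 and Hoxb8. Cbx1, also near the Hoxb cluster, fell by 0.52 (adjusted p = 0.0413, or 0.103 without that array), while Hibadh, near Hoxa, rose by 0.46 (adjusted p = 0.0328, or 0.0931 without it).

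Marker genes of tissues with trunk Hox expression were measured beside the Hoxb genes. Of 17 tested trunk, somite and tail bud genes, 2 were higher in Arid3b-null heads, Tbx6 (1.90, adjusted p = 9.07e-04) and T (1.54, adjusted p = 0.0111), both of posterior mesoderm. In the same list 3 were lower: Aldh1a2, which supplies retinoic acid in the trunk mesoderm, and Dll3 (-0.67) and Meox1 (-0.91), genes of presomitic and somitic mesoderm. Over all tested genes 12.3% were higher and 11.2% lower. Without wild type replicate 2 Meox1 had an adjusted p of 0.0532 and the other 4 passed. The summed level of the list was 4.04 to 4.55 times the 75th percentile in Arid3b-null heads and 4.77 to 4.92 times in wild type heads, and Msgn1 and Myf5 were well above background on no array. T entered the test through the Arid3b-null arrays alone, with 2 wild type arrays well above background. After normexp with an offset of 50 the difference of T was 0.22 (adjusted p = 0.322) and that of Tbx6 1.35 (adjusted p = 4.16e-04). Of 11 tested spinal cord and caudal hindbrain genes, 0 were higher by limma, with 2 higher at an unadjusted p under 0.05, and 3 were lower: Lhx4 (-2.65), Lhx3 (-2.20) and Olig2 (-1.48), all of motor neurons or their progenitors. Lhx4 entered the test through the wild type arrays alone, with 2 Arid3b-null arrays well above background. Lhx3 and Lhx4 are also genes of the pituitary rudiment in the head. Nkx6-1, the brightest gene of the spinal cord list, differed by 0.00 (adjusted p = 0.996 by limma), and the median of the list was -0.00. The list summed to 3.47 to 4.11 times the 75th percentile in Arid3b-null heads and 3.71 to 4.50 times in wild type heads. The part of trunk or spinal cord tissue in the Hoxb differences was not tested.

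The labelled tissue was present in both groups. Markers of forebrain and midbrain were well above background on all 6 arrays for 13 of 14 genes, and those of the first branchial arch for 14 of 14. In the forebrain and midbrain list 1 gene was higher, Otx2 (0.57), and 3 were lower, Lhx2 (-1.08), Six6 (-0.93) and Nkx2-1 (-1.20), beside 12.3% higher and 11.2% lower among all tested genes. Without wild type replicate 2 Otx2 did not pass (adjusted p = 0.0812), and Emx2 was a further lower gene (-0.81). In the arch list 7 of 14 genes were lower in Arid3b-null heads and 2 were higher, with a median of -0.57. Lhx8, a jaw mesenchyme gene, fell by 3.15 (adjusted p = 9.16e-04), Hand2, which patterns the lower jaw, by 2.74 (0.00197) and Barx1 by 2.34 (0.00204). Limb and lateral plate genes, a further possible source of Hox RNA, were lower in 3 of 6 tested cases, Foxf1 and the arch genes Hand2 and Pitx1. Foxf1 was well above background on no Arid3b-null array and was at least 2.61-fold lower in Arid3b-null heads (adjusted p = 0.00209), while after normexp with an offset of 50 its difference was -0.37 (adjusted p = 0.140). The summed level of the limb list was 3.95 to 4.59 times the 75th percentile in Arid3b-null heads. In wild type heads it was 6.15 to 6.54 times. The sum includes the arch genes Hand2 and Pitx1, which fell by 2.74 and 1.10, so it does not read limb tissue alone. Tbx5, Fgf10 and Sall4 had positive differences of 0.51, 0.47 and 0.17 that did not pass. Of 10 tested genes of the heart and the hind arches 0 passed by limma, with 1 higher and 1 lower at an unadjusted p under 0.05. Blood genes were bright in both groups, and of 10 the 1 called was Klf1, which fell by 1.04 (adjusted p = 0.0216).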

How the data were processed

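Scanner files of 6 one-colour Agilent arrays were read. Per the file headers, Feature Extraction 10.7.3.1 made the intensity columns: the processed signal (background-subtracted and spatially detrended), median spot and background signals, and flags. The authors also deposited a table of log2 values for these arrays, whose scaling the sources used here do not give. Levels are log2 processed signal minus the 75th percentile of each array. Control and outlier-flagged spots were left out, spots of a probe averaged, and probes kept if well above background on all 3 arrays of a group and measured on at least 5 arrays. Of 39429 probes 26424 were named through RefSeq accessions, and the brightest kept probe stood for each of 14906 genes. The fit used lmFit and eBayes of limma 3.58.1 under R 4.3.3 with Benjamini-Hochberg adjustment, a step tested on simulated data. Normexp was run on median signals, since no mean signals were among the columns. Replicate numbers mark shared slides per the file headers, though deviations of same-numbered arrays correlated at -0.20, 0.15 and 0.42.

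Members and gene lists were chosen with earlier results of these data known. Named are Arid3b and every Hox gene past the threshold, at a bound or with an unadjusted p under 0.05. Up to 4 genes of smallest p are named per regulator list and up to 3 per marker list. Other genes were named after their values were seen. Bright markers that did not change are mostly not named. Some Hox genes and list genes are not reported here, and counts of members and lists leave them out, while every fit and adjustment ran over all genes. The number of arrays limits the precision.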

Additional observations from a re-analysis of the deposited data

How the results depend on the processing

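The 4 higher Hox calls held under quantile normalization, median scaling, the deposited table, the mean of a gene's probes and array weights. They also held with the slide block and with a robust variance with an intensity trend. In these settings 1660 to 3285 genes over the whole array were higher, of 14906 tested or 11648 in the deposited table. Higher calls numbered 1 after normexp with an offset of 50, 1 with an offset of 1, 2 without subtraction, 3 without a filter, 1 among genes well above background on all 6 arrays (where Hoxb5, Hoxb7 and Hoxb8 are not tested) and 0 at an adjusted p under 0.01. Lower calls numbered 0 under median scaling, 2 after normexp with an offset of 50, 0 without a filter, 0 with the filter at 1 array, 2 with the mean of probes, 3 with array weights, 2 with the replicate block (slide), 0 at 0.01 and 3 at 0.1. Over the whole array, higher and lower calls numbered 1236 and 1034 of 20021 genes without a filter. With the filter at 1 array they numbered 1561 and 1402 of 16585. Of 14906 genes they numbered 3285 and 3518 with array weights, 1660 and 1712 under median scaling and 1931 and 1704 with the mean of probes. Without subtraction they numbered 1457 and 1587. Leaving out 1 array gave 0 to 3 higher and 0 to 2 lower Hox calls. Over the whole array it gave 877 to 2536 higher and 639 to 2663 lower genes. The genes called over the whole array numbered 2270 without a filter, 6803 with array weights, 1272 at 0.01 and 1516 to 5199 with 1 array left out; without wild type replicate 2 and with the filter recomputed, an alternative chosen after seeing the data, they numbered 2208, with 3 higher Hox calls. The median Hox difference was -0.24 over genes well above background on all 6 arrays and -0.41 to 0.18 with 1 array left out. Arid3b was at -1.19 with an adjusted p of 0.0599 without a filter, missed 0.01, and ran from -1.42 to -0.87 with 1 array left out (adjusted p 0.0116 to 0.0861, over 0.05 without any 1 of the Arid3b-null arrays). The flag for a positive and significant signal gave 24 detected Hox genes in place of 15, and detection on at least 1 array also gave 24.

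Signs turned in genes that had not passed. Hoxa4 was at -0.13 and -0.05 after normexp with offsets of 50 and 1, -0.05 without subtraction, -0.15 with array weights and -0.54 to 0.60 with 1 array left out. Hoxb3 was at -0.02 after normexp with an offset of 50, -0.97 with the mean of its probes (adjusted p = 0.0114), -0.21 with array weights and -0.13 to 0.21 with 1 array left out. Hoxc12 was at -0.11, -0.08 and -0.04 under the 3 background treatments. Hoxd3 was at 0.02 with quantile normalization, 0.03 in the deposited table, 0.28 with array weights and -0.35 to 0.43 with 1 array left out. With 1 array left out Hoxa7 ran from -0.41 to 0.15, Hoxa9 from -0.57 to 0.11 and Hoxb6 from -0.61 to 0.33; with the filter recomputed Hoxa7 was at 0.15 and Hoxb6 at 0.33. Apart from the background treatments and single arrays, whose values are given, the cause was not tested. Dim genes limit the whole account: 23 of the 38 members carry no test. Below a level of about -4 the size of a difference rests on the background treatment. After normexp with an offset of 50, the median share a called gene kept was 28.2% between -6 and -4 and 5.11% under -6.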
